A study of Mus musculus with 10 samples.

Results

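The genes described are 10 transcription factor genes of somatic cells: Runx1, Runx2 and Runx3 with their partner Cbfb, the C/EBP genes Cebpa, Cebpb, Cebpd and Cebpg, and the ETS genes Ets1 and Fli1. They were chosen by symbol, and all 10 were found among the 45706 genes of the deposited tables. They were followed in mouse cells through the reprogramming of fibroblasts towards pluripotency, with 5 groups of 2 libraries each. The MEF group is embryonic fibroblasts of strain C57BL/6 x 129 and genotype OKSM Col1a1/M2rtTA ROSA26, kept in MEF medium with no doxycycline and not sorted. These cells carry a single OKSM cassette (the reprogramming factors Oct4, Klf4, Sox2 and Myc) in the Col1a1 locus and the doxycycline-responsive activator M2rtTA in the Rosa26 locus. The D3, D6 and D9 groups are the same genotype after 3, 6 and 9 days in ESC medium with 1 µg/ml doxycycline and 50 µg/ml ascorbic acid. D3 cells were unsorted, whereas D6 and D9 cells were sorted, with the marker given in the labels as SSEA+. The ESC group is the embryonic stem cell line V6.5, also C57BL/6 x 129, unsorted and without doxycycline in ESC medium. Per the labels' protocols V6.5 cells were grown on irradiated feeder cells. Medium, doxycycline and day all differ between MEF and D3, and sorting differs as well between MEF and D9. Day and sorting both differ between D3 and D6. Cell line, doxycycline, sorting and feeders all differ between D9 and ESC, and cell type and medium differ between MEF and ESC. Ascorbic acid is given for D3, D6 and D9 but not for MEF or ESC. The parts of these factors in a difference cannot be told apart.

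RUNX proteins bind DNA through the runt domain and do so stably as heterodimers with CBFB, which does not itself contact DNA. RUNX1 is best known in blood formation, RUNX2 as the master factor of osteoblasts and RUNX3 in T cells and neurons, and fibroblasts also use RUNX1 and RUNX2. C/EBP proteins are basic leucine zipper factors that act as dimers with one another: C/EBPα, C/EBPβ and C/EBPδ act in fat, liver and myeloid cells and in inflammatory responses, and C/EBPγ lacks a classical activation domain and dimerises with the others. ETS1 and FLI1 belong to the ETS family, known in lymphoid, blood and endothelial cells and in mesenchyme.

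Between MEF and D9, 7 of the 10 genes fell: Runx1, Runx2, Runx3, Cebpa, Cebpb, Ets1 and Fli1. None rose, and all 10 had a negative log2 fold change. Over all 20165 genes tested, 19.8% were called lower and 24.1% higher in the same comparison. Cbfb, Cebpd and Cebpg were not called between MEF and D9, with log2 fold changes of -0.62, -0.47 and -0.53. A gene was called when its adjusted p from edgeR's quasi-likelihood test was under 0.05 and its log2 fold change was at least 1 in either direction. The median log2 fold change of the 10 genes was -3.16, beside 0.193 for all genes tested.

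The decline was spread over the 3 intervals, and the genes did not take the same ones. From MEF to D3, Runx1, Runx2, Runx3, Cebpb and Fli1 fell, 5 of 10 genes where 14.5% of all genes were called lower, and Cebpd alone of the 10 rose, where 14.6% were called higher. From D3 to D6, Runx2, Runx3, Cebpa, Cebpb, Ets1 and Fli1 fell, 6 of 10 genes beside 10.2% of all genes, and none rose, beside 9.26%; Cbfb had the 1 positive value (log2 0.19, adjusted p = 0.00078, edgeR). From D6 to D9, Runx1, Runx2 and Ets1 fell, 3 of 10 genes beside 2.68%, and none rose, beside 5.18%; Fli1 had the 1 positive value (log2 0.37, adjusted p = 0.72, edgeR). Runx2 was the only 1 of the 10 called at all 3 intervals. ESC stood above D9 for Runx2, Runx3 and Fli1, 3 of 10 genes beside 18.6% of all genes, and below D9 for Cebpd, 1 of 10 beside 14.3%. Between MEF and ESC, 9 genes were lower in ESC, all but Cbfb, beside 20.6% of all genes, and none was higher, beside 25.5%, with 10 negative values. DESeq2 and limma also called none of the 10 higher in D6 with D3, D9 with D6, D9 with MEF or ESC with MEF. Median log2 fold changes of the 10 genes were -0.73, -1.52 and -0.66 over the 3 intervals, 0.48 for ESC with D9 and -2.68 for ESC with MEF, beside 0.08, 0.033, 0.0, 0.005 and 0.099 for all genes tested. These comparisons share libraries, so their counts are not independent of one another.

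**Figure D1:**
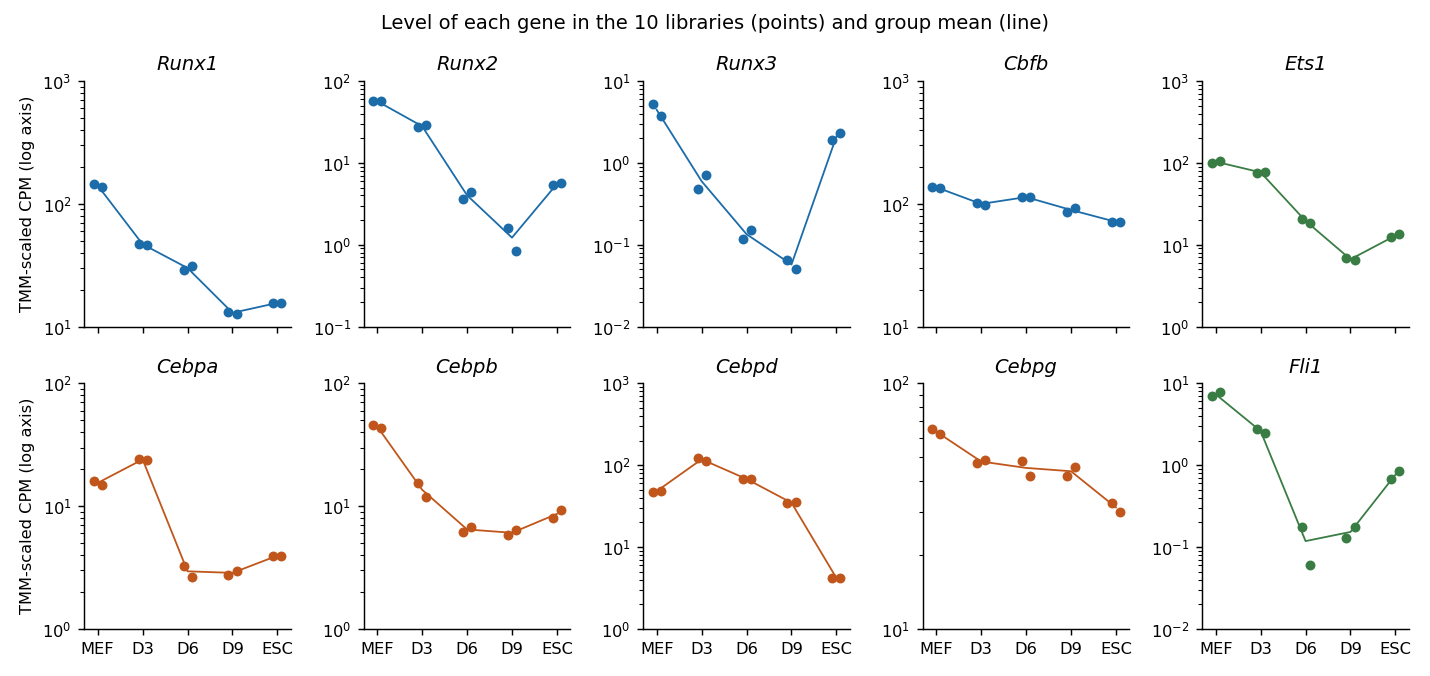
Level of the 10 genes in each library, as CPM on log axes whose ranges differ between panels; points are libraries and lines join the group means. Cebpa and Cebpd peak at D3, Cbfb and Cebpg stay within a narrow range, and the other 6 genes fall from MEF, with Runx3 back at 2.11 CPM in ESC from 0.0574 CPM at D9.

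Libraries held 29585876 to 38275024 estimated reads, and all 10 genes passed the filter on low counts. Runx3 and Fli1 had under 10 reads in each of the 4 libraries of D6 and D9, so their levels there are known only within wide counting intervals. The labels do not say that the 2 libraries of a group came from separate embryos or cultures, so the p-values measure only the spread between these libraries, which may be technical. Levels of a gene across groups are given as CPM, counts scaled to a common library size with the TMM correction, and levels between genes as TPM, which also account for transcript length. In bulk RNA, fewer cells that express a gene and less RNA per cell cannot be told apart. Summed TPM of 10 fibroblast markers was 11100 and 10500 in MEF, 597 and 621 at D3, 105 and 101 at D6, 90.6 and 83.2 at D9, and 1380 and 1420 in ESC. The marker sum was lower at each later day to D9, and it was higher in ESC than at D9. The part of fibroblast content in the falls was not tested.

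Runx1 lies on chromosome 16 (chr16:92601466-92826149, minus strand, GRCm38). It stood at 145 and 137 CPM in MEF, 47.4 and 46.3 at D3, 28.8 and 31.2 at D6, 13.2 and 12.7 at D9, and 15.6 in both ESC libraries. No groups overlapped, and D9 was the lowest. The fall from MEF to D3 was 3.01-fold (log2 fold change -1.59 ± 0.05, SE; adjusted p = 8.9e-13, edgeR quasi-likelihood test). The next interval gave -0.64 ± 0.05, under the fold minimum, and D6 to D9 a further fall of 2.31-fold. Runx1 in D9 was 10.9-fold lower than in MEF, and the 1.21-fold difference between ESC and D9 was under the fold minimum.

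Runx2 (chr17:44495987-44814797, minus strand) fell at every reprogramming interval. Its level was 56.3 and 57.2 CPM in MEF, 27.1 and 29.0 at D3, 3.59 and 4.45 at D6, 1.61 and 0.833 at D9, and 5.42 and 5.66 in ESC. The groups did not overlap, and the steepest interval was D3 to D6, a 6.99-fold fall (log2 -2.8 ± 0.12; adjusted p = 7.8e-11, edgeR quasi-likelihood test). D9 was 48.1-fold below MEF, resting on 50 and 33 reads, and ESC was 4.7-fold above D9. The first interval lay near the fold minimum: its log2 fold change of -1.02 became -0.96 without D3 replicate 1 and -0.81 when TMM scaling was left out, and the call was lost both times. The fall from D6 to D9 gave log2 -1.77 (adjusted p = 1.2e-05, edgeR). It was not called when transcript length entered the edgeR fit as an offset (log2 -0.72, adjusted p = 0.091). Nor was it called with limma on log2(TPM + 0.1) (log2 -0.58, adjusted p = 0.094) or on log2(TPM + 1) (log2 -0.2, adjusted p = 0.27).

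Runx3 (chr4:135120652-135177990, plus strand) was the least abundant of the 3 in TPM. Its 2 libraries gave 5.21 and 3.69 CPM in MEF (141 and 121 reads), 0.485 and 0.709 at D3, 0.118 and 0.151 at D6, 0.0643 and 0.0505 at D9, and 1.91 and 2.3 in ESC. The reads behind the low points were 4 and 5 at D6 and 2 and 2 at D9. Pooled over the libraries of a group, D3 held 13.6% of the MEF level (95% interval 9.56% to 18.9%, counting error only) and D9 held 1.3% (0.351% to 3.36%). Both falls were called, with adjusted p of 9.7e-07 and 6.5e-09 (edgeR quasi-likelihood test). The D9 level over that of D6 was 42.2% with an interval of 9.49% to 151%, so a difference at that interval was not detectable at this depth. From D3 to D6 the level fell to 22.7% (9.7% to 47.3%; adjusted p = 0.0011, edgeR), a call lost with limma on log2(TPM + 0.1), where the adjusted p was 0.072. ESC was 37.4 times D9, with an interval of 14.3 to 139, and 48.5% of MEF (39.4% to 59.5%). The call of Runx3 as lower in ESC than in MEF (log2 -1.07, adjusted p = 0.0021, edgeR) was lost without MEF replicate 1 (-0.82), without ESC replicate 1 (-0.95) and without TMM (-0.73).

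The upstream window of the distal Runx3 start is shown because this gene had the widest difference between D9 and ESC among the 10, and because its only transcript with reads in every library begins there. The window is the 250 bases before the RefSeq start (chr4:135120395-135120644, plus strand, RefSeq on GRCm38.p6), written 5′ to 3′. Capitals mark matches to the RUNX core TGTGGT, the KLF core GGGNGTGG, the C/EBP core TTGCNNAA or the ETS core CCGGAAG, each searched on both strands. A RUNX and a KLF match can overlap by sharing GTGG.

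Runx3 distal: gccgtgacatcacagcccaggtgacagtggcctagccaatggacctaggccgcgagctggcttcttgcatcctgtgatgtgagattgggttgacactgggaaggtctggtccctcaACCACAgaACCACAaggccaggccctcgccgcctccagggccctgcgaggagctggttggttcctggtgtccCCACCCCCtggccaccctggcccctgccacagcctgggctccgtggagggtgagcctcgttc

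The window held 2 RUNX core matches, at -134 and -126 from the start, and 1 KLF core match, at -62. Such windows are described by letters alone, and a match is not evidence of binding. RUNX core matches were found in 14.0% of the 32851 RefSeq windows of the same length, and KLF core matches in 15.9%. The window of the Runx2 distal RefSeq start (chr17:44814628-44814877, minus strand) held 1 RUNX core match, at -80, and 1 C/EBP core match, at -48. The distal Runx2 transcript with most of the distal reads begins further upstream, at 44814797. Both matches therefore lay inside the gene, downstream of that start. The distal Runx1 window also overlapped its gene. The proximal Runx3 window and both Runx1 windows held no match to any of the 4 cores.

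Cbfb (chr8:105170674-105217989, plus strand), the gene of the shared partner, was not called in any comparison. It stood at 138 and 135 CPM in MEF, 102 and 97.6 at D3, 113 and 114 at D6, 86.5 and 91.8 at D9, and 71.4 and 71.2 in ESC. The groups did not overlap, yet none of the 6 comparisons reached the fold minimum; the widest, ESC with MEF, gave log2 -0.94 ± 0.04 (adjusted p = 2e-11, edgeR quasi-likelihood test). With DESeq2 that value was -1.02 and was called. In TPM, Cbfb over the sum of Runx1, Runx2 and Runx3 was 1.18 in both MEF libraries, 2.9 and 2.76 at D3, 7.2 and 6.44 at D6, 10.2 and 12.1 at D9, and 4.44 and 5.64 in ESC. The ratio of the partner's RNA to that of the DNA-binding subunits was thus higher at each later day. Cbfb-007, a transcript not annotated as protein-coding, gave 18.4% and 25.7% of Cbfb TPM in MEF from 46 and 78 reads. Its share at D9 was 24.1% and 26.7%. Whether the partner's coding RNA exceeded the sum in MEF is therefore uncertain.

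Runx1 made up most of the Runx RNA in every group. Its share of the summed Runx TPM was 67.0% ± 2.28 (SD, n = 2) in MEF, 62.8% ± 3.14 at D3, 88.5% ± 1.7 at D6, 84.9% ± 5.22 at D9 and 61.6% ± 4.25 in ESC. The sum fell from 29.5 TPM in MEF to 9.15 at D3, 4.26 at D6 and 1.96 at D9, and was 4.38 in ESC.

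**Figure D2:**
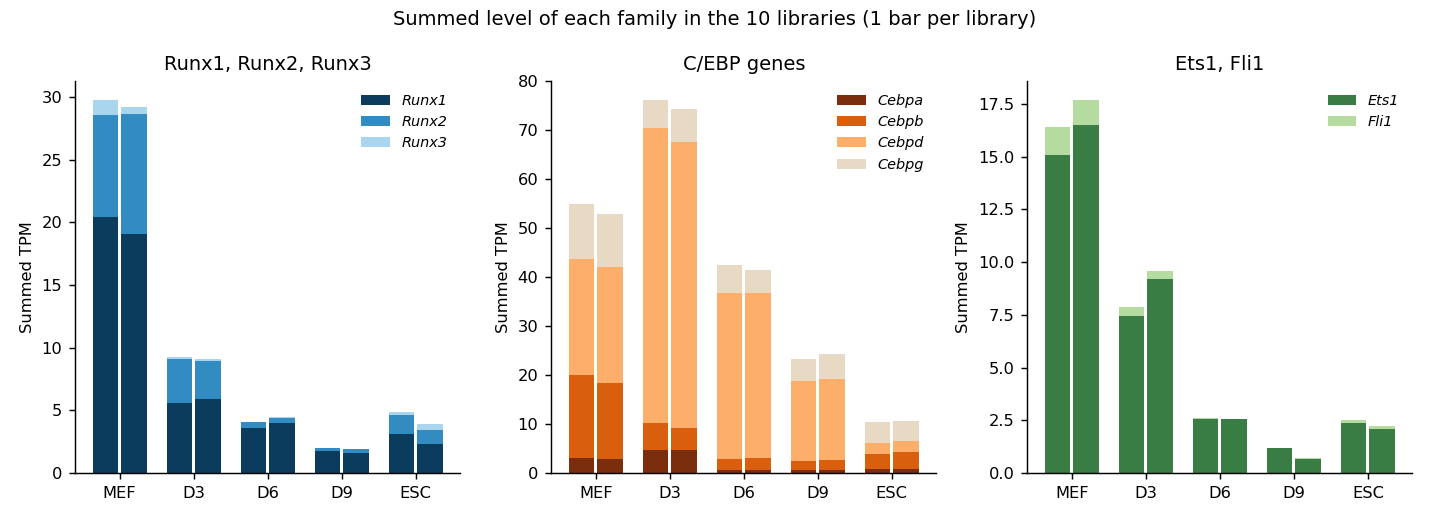
Summed TPM of the Runx genes, the C/EBP genes and the ETS pair, 1 stacked bar per library, with vertical scales that differ between panels. The Runx and ETS sums fall at every interval to D9, whereas the C/EBP sum is highest at D3, where Cebpd makes up 78.8% of it.

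Runx1 and Runx2 each have a distal and a proximal start, which give proteins with different N-termini. Reads assigned to transcripts that begin at the distal start made up 32.2% and 30.4% of Runx1 reads in MEF and 45.4% and 43.6% at D3. Later Runx1 shares lay between those of MEF and D3, at 36.6% and 41.7% at D6, 38.2% and 35.0% at D9, and 38.8% and 36.5% in ESC. For Runx2 the distal share was 38.4% and 34.4% in MEF, 64.6% and 76.8% at D3, 43.9% and 86.2% at D6, 61.6% and 60.6% at D9, and 39.9% and 46.6% in ESC. For both genes D3 lay above MEF in both libraries, and the D6 libraries of Runx2 lay far apart. By TPM the MEF and D3 shares were 18.2% ± 0.895 and 30.2% ± 1.61 for Runx1 and 19.6% ± 3.01 and 51.2% ± 14.7 for Runx2 (SD, n = 2). The assignment of single 50 nt reads to transcripts that share most exons is an estimate, and no test was made. In ESC replicate 1, the short transcript Runx1-002 took 34.5% of the TPM of Runx1 from 7 reads. The proximal transcript Runx2-014 took 43.0% and 52.9% of the TPM of Runx2 in MEF from 39 and 70 reads. At D3 it took 36.7% and 17.6% from 20 and 7 reads, so the Runx2 shares by TPM rest partly on few reads.

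**Figure D3:**
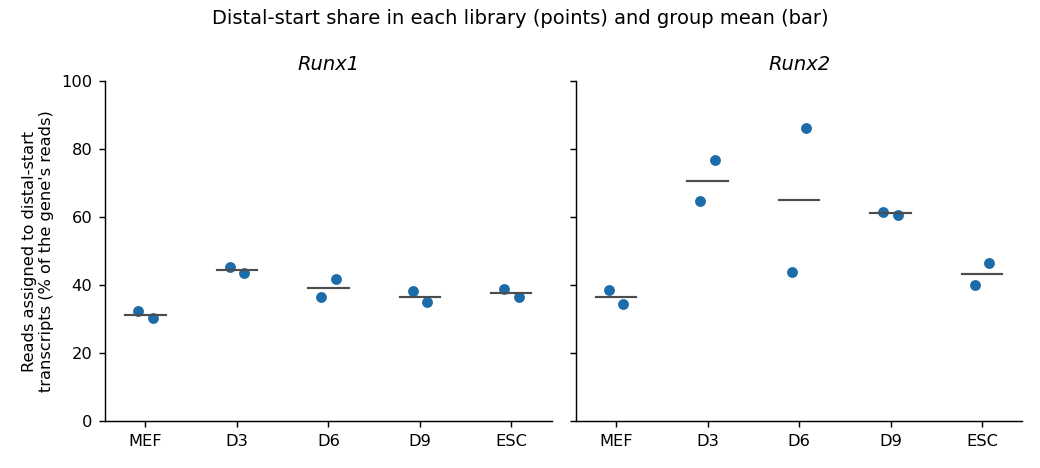
Share of the reads of Runx1 and of Runx2 assigned to distal-start transcripts in each library, as a percentage of all reads of the gene; points are libraries and bars are group means. Both genes are higher at D3 (44.5% and 70.7% on average) than in MEF (31.3% and 36.4%), and the 2 D6 points of Runx2 are the farthest apart.

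The 4 C/EBP genes took different courses. Cebpb (chr2:167688915-167690418, plus strand) fell early: 46.0 and 43.1 CPM in MEF, 15.3 and 11.9 at D3, 6.11 and 6.81 at D6, 5.79 and 6.34 at D9, and 8.01 and 9.27 in ESC. It was lowest at D6 and D9, whose libraries overlapped. The fall to D3 was 3.27-fold (log2 -1.71 ± 0.1; adjusted p = 1.5e-09, edgeR quasi-likelihood test), and D9 stood 7.31-fold below MEF. The interval from D3 to D6 gave log2 -1.07, which became -0.88 without D3 replicate 1, under the fold minimum. The 1-exon gene shares 312 bases, 20.7% of its exon sequence, with Tmem189 on the opposite strand, and whether the authors' counting used strand is not given in the sources used here. Tmem189 itself stood at 54.5, 70.9, 60.3, 66.9 and 32.4 CPM on average from MEF to ESC.

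Cebpa (chr7:35119293-35121928, plus strand) followed a later course. Its level was 16.0 and 14.9 CPM in MEF, 24.2 and 23.8 at D3, 3.23 and 2.66 at D6, 2.76 and 2.96 at D9, and 3.95 in both ESC libraries. D3 was the highest group, with log2 0.64 ± 0.09 over MEF (adjusted p = 1.2e-05, edgeR), under the fold minimum. From D3 to D6 it fell 8.13-fold (log2 -3.02 ± 0.1; adjusted p = 8.2e-12, edgeR quasi-likelihood test), and D6 and D9 overlapped.

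Cebpd (chr16:15887286-15891031, plus strand) was the only gene of the 10 called higher at any reprogramming interval. It stood at 47.4 and 48.8 CPM in MEF, 122 and 114 at D3, 67.5 and 68.1 at D6, 34.4 and 35.1 at D9, and 4.15 and 4.22 in ESC. The rise to D3 was 2.46-fold (log2 1.3 ± 0.04; adjusted p = 4.1e-12, edgeR quasi-likelihood test). The next steps down gave log2 -0.8 and -0.96, each under the fold minimum, and brought D9 close to MEF (log2 -0.47 ± 0.05). ESC was then 8.3-fold below D9, so Cebpd was the only 1 of the 10 called lower in ESC than in D9. Exons of Spidr on the opposite strand cover 562 of its bases, 15.0%, and Spidr stayed between 35.8 and 44.7 CPM on average in all groups.

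Cebpg (chr7:35046422-35056573, minus strand) varied least of the 4. Its level was 65.3 and 61.9 CPM in MEF, 47.5 and 48.6 at D3, 48.5 and 42.0 at D6, 41.9 and 45.8 at D9, and 32.5 and 30.0 in ESC. D6 overlapped with both D3 and D9. ESC with MEF was its only call (log2 -1.03 ± 0.07; adjusted p = 4.6e-09, edgeR), and it was lost without MEF replicate 1 (-1.0), without ESC replicate 2 (-0.98) and without TMM (-0.69). With a length offset, D9 with MEF gave -1.09 and was called. The short transcript Cebpg-002 made up 46.2% and 47.2% of Cebpg TPM in MEF but 16.8% and 22.8% at D3.

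Cebpa and Cebpg are neighbours, 62.7 kb apart on chromosome 7 with no protein-coding gene between them. Between D3 and D6, Cebpa was called lower (log2 -3.02) and Cebpg was not (log2 -0.08), a difference that was not itself tested. Their upstream windows are shown together for that contrast, with that of Cebpb, each the 250 bases before the RefSeq start on GRCm38.p6 and marked as above: chr7:35119043-35119292, plus strand, for Cebpa, chr7:35056567-35056816, minus strand, for Cebpg, and chr2:167688665-167688914, plus strand, for Cebpb.

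Cebpa: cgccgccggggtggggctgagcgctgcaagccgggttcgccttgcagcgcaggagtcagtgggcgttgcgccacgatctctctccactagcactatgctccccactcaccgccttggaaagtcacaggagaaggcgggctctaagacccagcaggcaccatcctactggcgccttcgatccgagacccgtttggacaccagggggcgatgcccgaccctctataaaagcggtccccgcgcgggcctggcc
Cebpg: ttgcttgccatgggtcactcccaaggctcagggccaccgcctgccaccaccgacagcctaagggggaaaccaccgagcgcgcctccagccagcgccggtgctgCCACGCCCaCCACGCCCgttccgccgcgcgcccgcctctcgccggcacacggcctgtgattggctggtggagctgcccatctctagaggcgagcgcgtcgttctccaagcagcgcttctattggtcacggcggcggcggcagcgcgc
Cebpb: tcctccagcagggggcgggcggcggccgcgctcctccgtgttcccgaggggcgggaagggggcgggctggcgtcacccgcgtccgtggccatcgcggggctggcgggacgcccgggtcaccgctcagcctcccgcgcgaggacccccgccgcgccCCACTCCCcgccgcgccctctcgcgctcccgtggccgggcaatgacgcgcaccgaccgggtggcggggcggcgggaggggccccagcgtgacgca

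The Cebpg window held 2 KLF core matches, at -147 and -138, the Cebpb window held 1, at -95, and the Cebpa window none of the 4 cores. The C/EBP core was found in 9.56% and the ETS core in 6.91% of all RefSeq windows, and in none of these 3. Guanine and cytosine made up 66.4% of the Cebpa window, 70.8% of that of Cebpg and 81.6% of that of Cebpb.

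Per length, Cebpd was the most abundant of the 4 C/EBP RNAs from MEF to D9. Its share of the summed TPM of the 4 genes was 43.9% ± 1.51 (SD, n = 2) in MEF, 78.8% ± 0.231 at D3, 80.3% ± 1.2 at D6, 68.5% ± 1.29 at D9 and 20.8% ± 0.049 in ESC. Cebpb gave 30.1% in MEF, 5.68% at D6 and 31.8% in ESC. In ESC the leading gene was Cebpg, with 39.7% ± 2.71. The sum itself was 53.9 TPM in MEF, 75.2 at D3, 42.0 at D6, 23.8 at D9 and 10.5 in ESC. The ratio of Cebpd to Cebpb TPM went from 1.39 and 1.53 in MEF to 14.9 and 13.5 at D6, and was 0.699 and 0.614 in ESC.

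**Figure D4:**
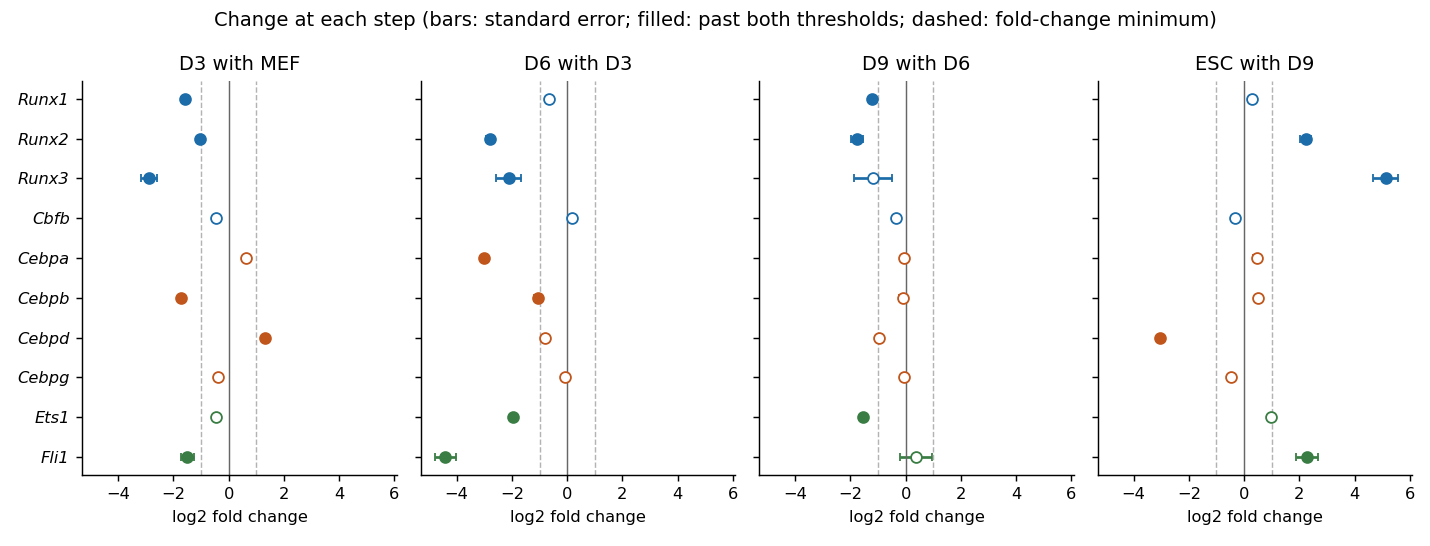
Log2 fold change of each gene at the 3 reprogramming intervals and between D9 and ESC, with standard errors; filled points passed both the adjusted p and the fold thresholds, and dashed lines mark a log2 fold change of 1 in either direction. Runx2 is filled in all 4 panels, Cbfb and Cebpg in none, and the wide bars are those of Runx3 and Fli1, which had under 10 reads per library at D6 and D9.

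Ets1 (chr9:32636221-32757820, plus strand) fell mainly after D3. It stood at 101 and 106 CPM in MEF, 75.0 and 78.2 at D3, 20.6 and 18.5 at D6, 6.85 and 6.44 at D9, and 12.5 and 13.4 in ESC. No groups overlapped. The first interval gave log2 -0.44 ± 0.05, under the fold minimum, and was followed by falls of 3.92-fold and 2.95-fold, both called (adjusted p = 1.5e-12 and 2.5e-09, edgeR quasi-likelihood test). D9 was 15.6-fold below MEF. ESC was 1.96-fold above D9 (log2 0.97), just under the fold minimum, and was called under 7 alternatives that kept that minimum, DESeq2 (log2 1.04) among them. By TPM Ets1 was 15.1 and 16.5 in MEF and 7.44 and 9.18 at D3, a wider gap than in CPM. The short transcript Ets1-005 took 37.5% and 41.0% of its MEF TPM and 3.12% and 15.4% at D3.

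Fli1 (chr9:32422204-32542861, minus strand) lies 93.4 kb from Ets1 with no protein-coding gene between them, and was called lower already at D3. Its level was 6.94 and 7.74 CPM in MEF, 2.77 and 2.45 at D3, 0.176 and 0.0605 at D6, 0.129 and 0.177 at D9, and 0.678 and 0.855 in ESC. The reads behind D6 were 6 and 2, and behind D9 4 and 7, and these groups overlapped. Pooled over libraries, D3 held 35.5% of the MEF level (95% interval 29.7% to 42.2%, counting error only) and D6 held 4.55% of that of D3 (1.94% to 9.16%). Both falls were called (adjusted p = 5.2e-05 and 1.3e-07, edgeR quasi-likelihood test). ESC was called higher than D9 (adjusted p = 0.00015, edgeR) at 4.95 times its level (2.56 to 10.5), a call lost with limma on log2(TPM + 0.1) (log2 0.96), and was 10.4% of MEF (7.74% to 13.8%). Ets1 made up 92.5% of the summed TPM of the pair in MEF and 93.8% in ESC.

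Blood and endothelial cells also express RUNX1, FLI1 and ETS1, and their markers were measured beside these genes. Summed TPM of 10 haematopoietic markers was 7.18 and 6.88 in MEF, 87.4 and 88.4 at D3, 153 and 149 at D6, 112 and 116 at D9, and 89.3 and 82.2 in ESC. Laptm5 alone made up 81.9% of that sum at D3, 97.4% at D6 and 94.8% at D9, and 6 of the 10 (Ptprc, Adgre1, Csf1r, Tyrobp, Cd52 and Fcer1g) had under 10 reads in both D6 libraries. The 6 endothelial markers summed to 3.66 and 2.28 in MEF, 19.2 and 17.6 at D3, 19.9 and 17.1 at D6, 9.58 and 10.2 at D9, and 21.9 and 22.5 in ESC, with Tek making up 92.8%, 86.3% and 87.8% of the sum at D3, D6 and D9 and Emcn at 0 at D6. The sums from D3 to D9 thus rest mainly on Laptm5 and Tek and do not describe the lists as groups. The endothelial sum likewise rested mainly on Pecam1 in ESC (86.1%) and on Emcn in MEF (71.1%). The part of such cells in the levels of Runx1, Fli1 and Ets1 was not tested. All 5 adipocyte markers were under 10 reads in MEF, D3, D6 and D9, and 4 of them were in ESC.

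Of the partners of RUNX, 12 corepressor and cofactor genes were tested, and between MEF and D9 2 rose and 5 fell (median log2 -0.61, beside 0.193 for all genes). Over all genes tested, 24.1% were called higher and 19.8% lower in this comparison, the shares to set beside the counts of each list that follows. Tle4, a Groucho corepressor, rose from 9.6 CPM in MEF to 76.3 at D9 (log2 3.0 ± 0.07), and Sin3a, a scaffold of histone deacetylase complexes, from 68.6 to 138 (log2 1.0 ± 0.04). Tle2 fell from 24.9 to 0.822 CPM (log2 -4.91 ± 0.15), and Cbfa2t3 from 1.49 to 0.338. Adjusted p-values of these 4 were 2.9e-14, 5.6e-12, 5.5e-13 and 0.00038 (edgeR quasi-likelihood test). The Groucho genes Tle2 and Tle4 thus moved in opposite directions.

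Of 10 osteoblast genes tested that are linked to RUNX2, 8 fell and 2 rose between MEF and D9, with a median log2 fold change of -5.83. The 2 of 10 that rose are no larger a share than the 24.1% of all genes, whereas 19.8% of all genes fell. Col1a1, the fibrillar collagen gene whose locus also holds the OKSM cassette, fell from 15000 to 5.68 CPM. Sp7, the osteoblast factor downstream of RUNX2, was at 4.73 and 4.63 CPM in MEF and was listed at 0 in all libraries of D3, D6 and D9. Alpl, alkaline phosphatase, which is also a pluripotent cell marker, rose from 2.24 to 69.5 CPM. Between D9 and ESC, 7 of the 10 were higher in ESC and 1 lower, beside 18.6% and 14.3% of all genes.

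A further list joined C/EBP family members, leucine zipper partners and Tribbles pseudokinases such as Trib3. Of its 7 genes tested, 6 fell and none rose between MEF and D9 (median log2 -2.93), beside 19.8% and 24.1% of all genes. Atf5 fell from 500.0 CPM in MEF to 61.7 at D3 and 33.5 at D9, and Trib3, a pseudokinase of the stress response, from 136 CPM in MEF to 0.904 at D3, then 8.18 at D9. Of 6 adipocyte genes tested, 5 fell and none rose (median log2 -3.92). The adipocyte genes Pparg and Fabp4, at 3.99 and 1.73 CPM in MEF, were at 0.0253 CPM each at D9. Of 8 acute-phase and inflammatory genes linked to C/EBP, 6 fell and 2 rose (median log2 -4.55), the latter near the 24.1% of all genes called higher. Ptx3 fell from 110 CPM in MEF to 27.9 at D3 and 0.208 at D6, and Il6 from 8.34 CPM in MEF to 0.522 at D3. The 2 that rose, Lcn2 and Saa3, stayed at 0.53 and 0.503 CPM at D9. Ptx3 and Il6 were thus called lower from MEF to D3 (log2 -1.97 and -3.97), the interval at which Cebpd rose and Cebpb fell. Both were called lower again from D3 to D6 (log2 -7.04 and -4.84), where Cebpa and Cebpb fell and Il6 reached 0.0151 CPM. The part of the C/EBP genes in these falls was not tested.

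Of 23 other ETS genes tested, 8 rose and 5 fell between MEF and D9, with a median log2 fold change of -0.11. The 5 that fell are a share near the 19.8% of all genes, and 24.1% of all genes rose. Erg, the closest relative of Fli1, was at 2.17 CPM in MEF and 0.0482 at D9, and Elf4 fell from 60.8 to 2.96 CPM. Ehf, an epithelial ETS factor, stood at 0.111 and 0.122 CPM in MEF, 107 and 109 at D3, 183 and 180 at D6, 151 and 155 at D9, and 0.56 and 0.641 in ESC. It was called higher at D3 than in MEF and lower in ESC than at D9 (adjusted p = 1.4e-17 and 6e-18, edgeR quasi-likelihood test). Elf3, another epithelial member, rose from 0.108 CPM in MEF to 9.8 at D9 and 27.1 in ESC. The summed TPM of 7 epithelial markers was 20.8 and 20.3 in MEF and 335 and 353 at D9.

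Of 10 endothelial genes linked to ETS factors, 7 rose and 2 fell between MEF and D9 (median log2 2.59), beside 24.1% and 19.8% of all genes. Tek, the angiopoietin receptor, rose from 2.33 CPM in MEF to 121 at D3 and was 68.3 at D9, and Cdh5, a cadherin of endothelial junctions, went from 0.138 to 7.54 and 3.39 CPM. Flt1, a VEGF receptor, fell from 156 CPM in MEF to 4.05 at D3, and Emcn from 4.15 to 0.043. At D9, Ets1 and Fli1 were lower than in MEF, and 7 of these 10 genes were higher than in MEF. The part of Ets1 and Fli1 in the levels of these genes was not tested.

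The level of the 10 genes in ESC was set beside that of the fibroblast markers, because feeder cells were present in the ESC cultures. As a share of the MEF level in CPM, ESC held 8.7% for Cebpd, 9.76% for Runx2, 10.4% for Fli1, 11.1% for Runx1, 12.5% for Ets1, 19.4% for Cebpb, 25.6% for Cebpa, 47.3% for Runx3, 49.1% for Cebpg and 52.2% for Cbfb. The 10 fibroblast markers ranged from 1.11% (Lum) to 42.9% (Fn1), with a median of 9.09%, and all 10 had a higher mean in ESC than at D9. Of the 10 genes, 7 lay within that range, and Runx3, Cebpg and Cbfb lay above it. The range is wide because of Lum and Fn1, and the markers between them ran from 2.87% (Dcn) to 14.0% (Thy1). Cebpb and Cebpa lay above every marker but Fn1. The share of all genes inside the range was not determined, so the 7 of 10 is no measure of likeness to the markers. At D9 the markers were at 0 to 5.95% of MEF (median 0.177%), and Runx3 (1.29%), Fli1 (2.08%) and Runx2 (2.15%), the 3 genes called higher in ESC than at D9, lay within that range. Ets1 was at 6.42%, Runx1 at 9.2%, Cebpb at 13.6%, Cebpa at 18.5%, Cbfb at 65.2%, Cebpg at 68.9% and Cebpd at 72.3%, all above it. Whether RNA of feeder cells contributed to the ESC levels of Runx2, Runx3, Fli1 and the others was not tested.

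**Figure D5:**
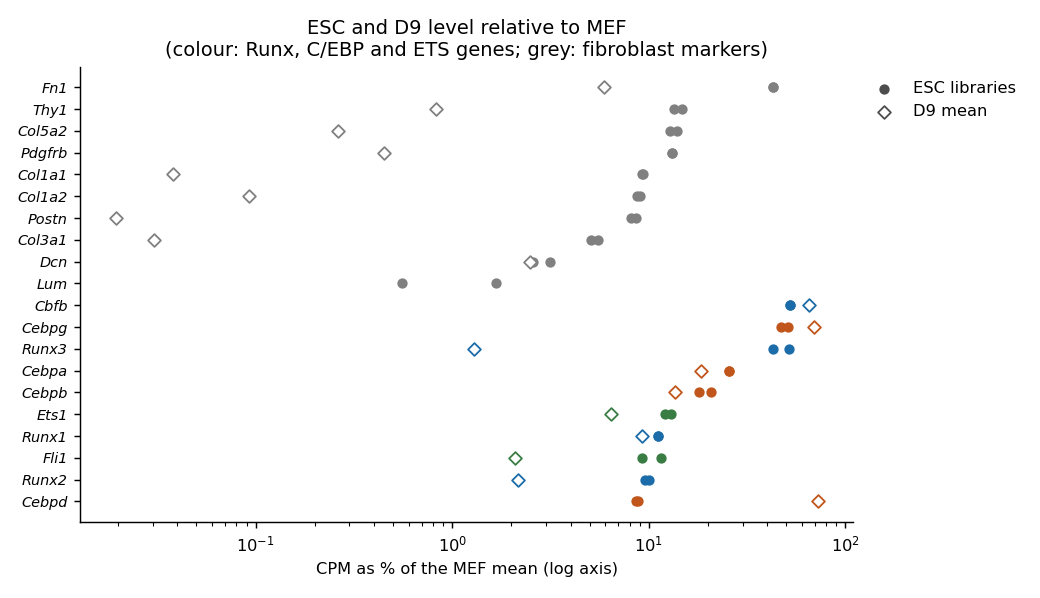
Level in each ESC library (filled points) and mean level at D9 (open diamonds) as a percentage of the MEF mean in CPM, on a log axis; grey rows are fibroblast markers and coloured rows the 10 genes, and Lum at D9, at 0, is not drawn. Most markers have an ESC level many times that at D9, and among the 10 genes Runx3 has the widest such gap and Cebpd is the reverse.

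Among 12339 protein-coding genes that reached 5 CPM in a group, those with the course most like each of the 10 were ranked by the root mean square difference of centred log2 CPM over the 10 libraries. The closest match of all was Ptpn11 to Cbfb, at 0.062, and the closest to Cebpg was Tmem181a, at 0.067. Runx1 was nearest to Pcdhgb6 (0.158), whose reads are uncertain because it belongs to a cluster of near-identical protocadherins, then to Hoxc9 (0.177) and the collagen receptor gene Ddr2 (0.213). Runx2 was nearest to Ebf1 (0.242), Fbn1 and Zfpm2, and Runx3 to Fam171b (0.246) and Itga5. Cebpa was nearest to the Notch target Hey1 (0.238) and to Socs3, Cebpb to Cd63 (0.136), and Cebpd to Plcl1 (0.205) and the complement gene C1ra. Ets1 was nearest to Atxn1 (0.144) and Emp3, and Fli1 to Pcdh19 (0.322). Within the 10 genes the most alike pair was Cbfb with Cebpg (0.127), and the next was Runx1 with Cebpb (0.498). These values describe 10 libraries in 5 groups and carry no test.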

How the data were processed

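RNA was measured in 10 libraries, 2 for each of MEF, D3, D6, D9 and ESC. Per the labels' protocols, mRNA libraries came from a stranded TruSeq kit, and reads were single and 50 nt long. The submitters' processing notes name Salmon 0.8.2 and the build mm10. The authors deposited 1 table of 109617 transcripts per library, and per the file headers it holds estimated counts (not normalized) and TPM. Effective lengths were identical in all 10 tables. Both columns were summed per gene, and counts were rounded. The 10 genes and all gene lists were chosen with earlier results of these data known. At most 4 genes a list are named, those with the 2 largest rises and 2 largest falls among genes called in D9 with MEF. Some genes that met the naming rules are not reported here.

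Genes were filtered with filterByExpr (minimum count 10, total 15; 20165 genes kept), scaled with TMM and tested with edgeR 4.0.16 (glmQLFit, glmQLFTest; R 4.3.3) in 1 fit of all 10 libraries, with Benjamini-Hochberg adjustment over all genes. The spread between replicates was small (common biological coefficient of variation 3.75%). The script was tested on simulated data. Alternatives were DESeq2 1.42.0, limma 3.58.1 on log2(TPM + 1) and log2(TPM + 0.1), other filters and scaling, a length offset, a replicate block and each library left out. Ratios of low counts have exact conditional intervals. Positions are from GENCODE M21 (GRCm38), in which 98.8% of genes were found by ID. Windows before start sites are from RefSeq (GRCm38.p6), which matched 7 of the 10 genes; those of Cebpd, Ets1 and Fli1 are not shown. A distal transcript begins within 5000 bases of the gene's first start.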

Additional observations from a re-analysis of the deposited data

How the results depend on the processing

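Leaving out 1 library at a time reversed no log2 fold change that was called in the full fit. Some called values dropped under the fold minimum: Runx2 in D3 with MEF (-0.96) and Cebpb in D6 with D3 (-0.88). In ESC with MEF, so did Runx3 (-0.82 and -0.95) and Cebpg (-1.0 and -0.98, the former just under it before rounding). Ets1 in ESC with D9 passed the minimum (1.01 and 1.02). With no fold change minimum, 10 genes were called in D3 with MEF, 5 in D9 with D6 and 10 in ESC with D9. With limma on log2(TPM + 1), which compresses changes of low genes, 3 were called in D6 with D3, 1 in D9 with D6 and 1 in ESC with D9. Of the log2 fold changes of single genes under other settings, 1161 kept direction and call, 32 gained a call, 28 lost it and 5 reversed. Dropping the fold minimum can only add calls, and leaving out a library of neither group compared can change little. The tally is therefore no measure of robustness. The reversals were all of uncalled values: Cebpg in D6 with D3 was 0.01 without D6 replicate 2, Cebpa in D9 with D6 was 0.11 without D6 replicate 1, Cebpg in D9 with D6 was 0.06 without D6 replicate 1 and 0.01 without D9 replicate 1, and Fli1 in D9 with D6 was -0.18 without D6 replicate 2. Over all libraries left out in turn, these 4 values ranged -0.2 to 0.01 (Cebpg, D6 with D3), -0.18 to 0.11 (Cebpa), -0.15 to 0.06 (Cebpg, D9 with D6) and -0.18 to 1.31 (Fli1). Where a group was left with 1 library, that library was assumed to vary like the others.

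As a share of estimated reads in place of TPM, Runx1 made up 69.7%, 91.2% and 67.2% of its family in MEF, D9 and ESC. Cebpd made up 28.0%, 58.0%, 55.4%, 39.7% and 8.72% from MEF to ESC, and Cebpg 37.0%, 23.6%, 36.9%, 50.1% and 65.1%, so by reads Cebpg led in MEF, D9 and ESC. By reads the distal share of Runx1 was 31.3%, 44.5%, 39.2% and 36.6% in MEF, D3, D6 and D9, and that of Runx2 was 36.4%, 70.7%, 61.1% and 43.3% in MEF, D3, D9 and ESC.

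Deviations of same-numbered libraries correlated between -0.02 and 0.022, so no pairing by replicate number was seen. These correlations run over all genes kept, and a shared origin that moved only some genes could be missed, so they do not settle whether the libraries were paired. The fit with a replicate block called 6, 6, 3, 4, 7 and 9 of the 10 genes and changed no call among them. The order is D3 with MEF, D6 with D3, D9 with D6, ESC with D9, D9 with MEF and ESC with MEF. In the same order, that fit called 5748, 3811, 1501, 6496, 8699 and 9161 of all 20165 genes tested.

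Over all genes the 6 comparisons gave 5873, 3926, 1586, 6637, 8851 and 9290 calls. With no fold change minimum they gave 13094, 11387, 6981, 14028, 15098 and 15442. With a filter of 10 CPM in 2 libraries, which left 11696 genes without Runx3 and Fli1, they gave 3036, 2019, 771, 2955, 4763 and 5055, and with limma on log2(TPM + 1) 2663, 1401, 382, 2768, 4625 and 5055. With limma on log2(TPM + 0.1), D9 with D6 gave 991. Scaling by library size without TMM put the all-gene median at 0.285 (log2) in D3 with MEF, 0.482 in D9 with MEF and 0.438 in ESC with MEF, and the calls higher and lower from 2950 and 2923 to 3809 and 2483, from 4857 and 3994 to 6241 and 3284, and from 5142 and 4148 to 6553 and 3152. The uncalled negative values of Cebpg and Cbfb between MEF and D9 are to be read against that shift. Depth limits Runx3 and Fli1 at D6 and D9, where 2 to 7 reads per library stood behind a level.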
